A study of Saccharomyces cerevisiae with 6 samples.

Results

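The genes described here are the 39 intron-containing genes of budding yeast that encode proteins of the large (60S) ribosomal subunit and whose name starts with RPL and a number, with 13 named genes of that class left out (both copies of RPL7, RPL13, RPL22, RPL26, RPL27 and RPL37, and RPL30). They are 39 of the 312 genes in the read-class tables, which also hold 11 of the genes left out, 36 genes of the small subunit and 226 other genes. Of the 39, 36 form 18 pairs of paralogs (A and B copies) and 3 stand alone, RPL25, RPL28 and RPL39. RPL24A, RPL24B, RPL29 and RPL32 are not analysed here.

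The large subunit holds the peptidyl transferase centre and the tunnel through which the new protein leaves the ribosome. Its proteins are made in near equal amounts from some of the most highly transcribed genes of the cell, many of them kept as a pair of copies after a genome duplication. Few yeast genes have an intron, but ribosomal protein genes often do, so that these transcripts make up much of the work of the spliceosome. The spliceosome recognises the 5′ splice site (5′SS, GTATGT in most yeast introns), the branch point (BP, TACTAAC) and the 3′ splice site (3′SS, a pyrimidine followed by AG), and it can act while RNA polymerase II is still transcribing the gene.

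RNA came from log-phase cultures in rich medium of 3 strains with 2 biological replicates each. The fast strain carried rpb1-G1097D, the slow strain rpb1-H1085Y and the WT strain RPB1, each on a centromeric LEU2 plasmid in cells without the chromosomal copy of RPB1, which encodes the largest polymerase II subunit. All 3 also carried a TAP tag on RPB3 and a deletion of UPF1, which nonsense-mediated decay needs. RNAs with a premature stop codon are thus spared that decay in every strain, and no strain with UPF1 was compared. Each mutant is 1 allele. The authors report that both mutants grow more slowly than WT, and effects of growth and of elongation rate cannot be told apart here.

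The read-class tables held 10916824 to 11033195 reads per library in fast, 7682741 to 10333540 in slow and 9666588 to 10610833 in WT, and the 39 genes took 34.4% to 37.3% of them. Reads on the 3 mitochondrial intron genes numbered 105907 and 137816 in fast, 501 and 705 in slow, and 118737 and 140491 in WT. Leaving out these genes and those joined by a frameshift ended none of the calls of named members given below. That step concerns the counting of reads only. Whether the low mitochondrial count of the slow strain goes with its other changes was not tested. Of the split reads of the 39 introns, 0.24% to 0.37% were multiply mapped, and the sources used here do not state how the read-class tables treat reads shared by paralogs.

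All 39 introns of the annotation were found as junctions in every library. They were long for yeast, from 147 nt in RPL2A to 527 nt in RPL33B with a median of 415 nt, against a median of 116 nt in 1 intron of each of 221 other genes of the tables. The first 6 bases were GTATGT, read on the sense strand, in 33 of the 39 introns (84.6%) and in 155 of the 221 others (70.1%). TACTAAC was present in the last 100 nt of 38 members (97.4%), RPL19A being the exception, and of 170 others (76.9%). The intron ended in TAG in 20 members and in CAG in 19. No member intron contained an annotated small nucleolar RNA.

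The intron ends shown are of the 6 genes whose pre-mRNA to mRNA ratio passed in the fast mutant under the first count of reads given below. The same letters occur in those with a higher and those with a lower ratio. Since most members share these letters, that was likely beforehand and says nothing on the change. The 5′ ends below, from the R64 genome, are the first 16 nt of each intron with the 5′SS in capitals.
RPL6A: GTATGTtcctacatgt
RPL36B: GTATGTttacctgaac
RPL28: GTATGTagttccattt
RPL21A: GTATGTcatttaatcc
RPL17B: GTATGTttaaaatgaa
RPL14B: GTATGTtgaacctaaa

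The last 60 nt of the same introns follow, with the TACTAAC of the BP and the 3′SS in capitals.
RPL6A: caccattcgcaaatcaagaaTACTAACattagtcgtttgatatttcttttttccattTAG
RPL36B: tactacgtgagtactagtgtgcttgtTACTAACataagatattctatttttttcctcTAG
RPL28: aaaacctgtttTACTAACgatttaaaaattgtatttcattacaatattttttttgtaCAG
RPL21A: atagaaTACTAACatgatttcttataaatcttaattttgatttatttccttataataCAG
RPL17B: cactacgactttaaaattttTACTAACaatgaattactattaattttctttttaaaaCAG
RPL14B: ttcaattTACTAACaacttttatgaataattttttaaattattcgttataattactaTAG

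DICEseq counts reads in classes. Those within the intron or over either of its edges stood for pre-mRNA and those over the spliced junction for mRNA, and the pre-mRNA fraction is the pre-mRNA count as a percentage of both. In WT the fraction differed widely among the 39 genes. RPL36B was lowest, at 1.59% and 2.03% in the 2 libraries, and RPL31A, RPL16B and RPL33B also had means under 5%. RPL42A was highest, at 70.8% and 74.6%, followed by RPL43B, RPL19B, RPL2B and RPL19A, all with means over 50%. In all, 17 members had a WT mean under 10% and 12 had one of 30% or more. Both the order of the genes and these counts depend on which reads stand for mRNA, as given further below. RPL42A encodes a protein at the exit (E) site, near where cycloheximide binds, and RPL19A and RPL19B encode a protein that lies near the exit tunnel and reaches across to the small subunit.

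**Figure D1:**
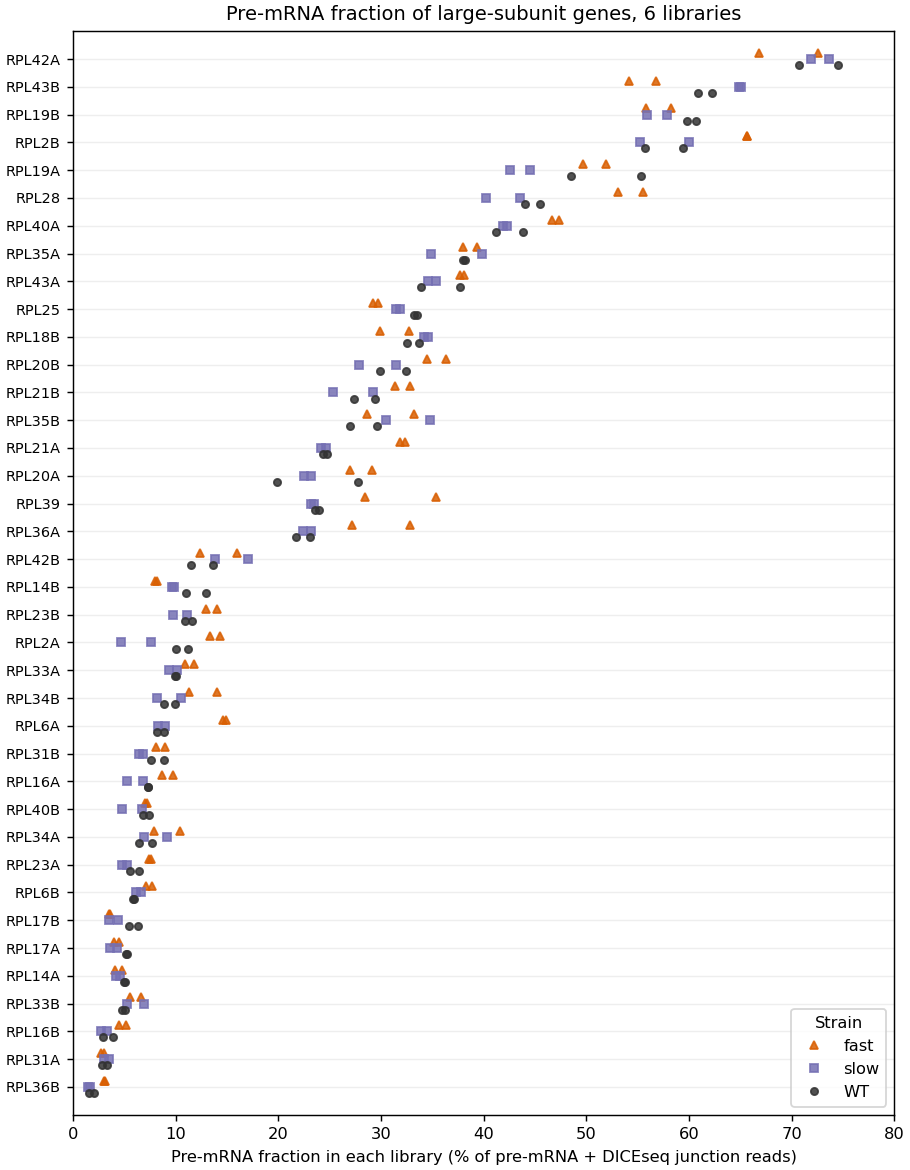
Pre-mRNA fraction (%, x axis) of 38 of the 39 genes (y axis, ordered by WT mean) in the 2 libraries of fast (triangles), slow (squares) and WT (circles). RPL6A in fast stands at 14.9% and 14.6%, to the right of its slow and WT points, and RPL17B and RPL14B in fast stand to the left of WT.

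The first comparison asks whether a polymerase that elongates faster leaves more or less unspliced RNA from these genes. By edgeR's quasi-likelihood test, in which all strains shared 1 fit, 4 of 39 members had a higher pre-mRNA to mRNA ratio in fast and 2 a lower one. Over all 250 genes tested, 6% were higher and 3.20% lower. The median log2 change was 0.25 over the members and 0.03 over all genes, with 26 members above 0. It was 0.39 over the 11 large-subunit genes left out, 0.17 over the 36 small-subunit genes and −0.16 over 164 other genes, and these medians were not tested against each other. In both fast libraries the fraction exceeded both WT libraries for 20 members and lay under both for 7, against 32% and 26.8% of all genes tested.

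RPL6A (YML073C; intron on chromosome XIII from 123743 to 124157), which encodes a 60S protein, had the greatest change of the 4. Its fraction was 14.9% and 14.6% in fast, 8.99% and 8.26% in slow, and 8.18% and 8.85% in WT. The fast libraries thus lay well above the other 4, and the log2 ratio was 0.89 with a standard error of 0.14 (edgeR, adjusted p = 0.00880). Its paralog RPL6B, whose protein is nearly the same, stood at 7.09% and 7.69% in fast against 5.95% and 5.88% in WT, with a log2 ratio of 0.34 that did not pass (adjusted p = 0.124).

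RPL36B (YPL249C-A; chromosome XVI from 75986 to 76223) had few pre-mRNA reads in every strain. The fraction was 3.13% and 3.03% in fast, 1.62% and 1.46% in slow, and 1.59% and 2.03% in WT (log2 ratio 0.80, standard error 0.15, adjusted p = 0.0276). Behind these percentages stand 1104 and 974 pre-mRNA reads in fast, 483 and 547 in slow, and 697 and 730 in WT. Its paralog RPL36A, at 27.2% and 32.8% in fast against 21.7% and 23.1% in WT, had a log2 ratio of 0.57 (adjusted p = 0.0748).

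RPL28 (YGL103W; chromosome VII from 311016 to 311526) encodes the protein that is altered in a classic class of cycloheximide-resistant mutants. It has no paralog and gave by far the most pre-mRNA reads of the 39 genes, with 36400 to 80104 per library. The fraction was 53.1% and 55.5% in fast, 40.3% and 43.5% in slow, and 45.5% and 44.0% in WT (log2 ratio 0.55, standard error 0.11, adjusted p = 0.0295). RPL21A (YBR191W; chromosome II from 606281 to 606668) stood at 31.8% and 32.3% in fast, 24.2% and 24.6% in slow, and 24.7% and 24.4% in WT (log2 ratio 0.54, adjusted p = 0.0299). In both genes the fast libraries stood apart from the other 4.

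RPL17B (YJL177W; chromosome X from 91095 to 91411) encodes a protein that lines the exit tunnel, and its ratio was lower. The fraction was 3.62% and 3.49% in fast, 3.48% and 4.41% in slow, and 5.41% and 6.30% in WT (log2 ratio −0.75, standard error 0.16, adjusted p = 0.0299). Both mutants lay under WT there. RPL14B (YHL001W; chromosome VIII from 104406 to 104803) stood at 8.18% and 8.01% in fast, 9.61% and 9.84% in slow, and 12.98% and 11.0% in WT (log2 ratio −0.63, standard error 0.14, adjusted p = 0.0299). Their paralogs RPL17A and RPL14A had log2 ratios of −0.33 and −0.20 that did not pass (adjusted p = 0.160 and 0.333). RPL39, a single-copy gene of a very short protein of the exit tunnel, stood at 28.4% and 35.4% in fast, 23.5% and 23.2% in slow, and 23.6% and 24.0% in WT (log2 ratio 0.58, adjusted p = 0.106). Without either WT library no member passed in this comparison. Without the second fast library 2 were higher and 0 lower, and without the first fast library or either slow library 1 was lower.

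These values depend on which reads stand for mRNA, and the libraries differ in that respect. DICEseq junction reads were only a part of the split reads that STAR mapped uniquely to the same annotated junctions. The median share over the 39 genes was 35.3% and 34.4% in fast, 47.4% and 48.2% in slow, and 48.1% and 48.6% in WT. It was under both WT libraries in both fast libraries for 36 of the 39 members, against 67.1% of 222 genes, and over both for 0, against 3.60%. In slow it was under both WT libraries for 6 members and over both for 19, against 6.76% and 37.4% of those genes, and it overlapped for 14. The cause was not tested.

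The share went with the length of the first exon. The gene models of the tables run from start to stop codon for all 39 members, and the coding part of exon 1 spans 1 nt in RPL20A and RPL20B to 309 nt in RPL17A and RPL17B. Across the 39 genes the WT share and log2 of this length had a Pearson's r of 0.88 and a Spearman's rho of 0.87, given as a description of genes that share the same libraries. The WT pre-mRNA fraction and log2 of this length had a Pearson's r of −0.59, and of −0.17 with STAR split reads as mRNA. With STAR split reads, 28 members had a WT mean fraction under 10% and 1 had one of 30% or more. That 1 was RPL28, at 36.4%. RPL42A, RPL43B, RPL19B, RPL19A and RPL2B, the highest before, then had WT means of 28.6%, 22.7%, 17.3%, 12.4% and 7.58%. For the 6 members with 100 nt or more, both copies of RPL14 and RPL17 among them, the median share was 84.7% and 86.0% in fast, 87.0% and 87.6% in slow, and 86.2% and 86.8% in WT. For the 33 others it was 27.7% and 26.0% in fast, 42.8% and 42.6% in slow, and 37.3% and 39.4% in WT, and every one of these 33 was lower in both fast libraries than in both WT libraries.

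**Figure D2:**
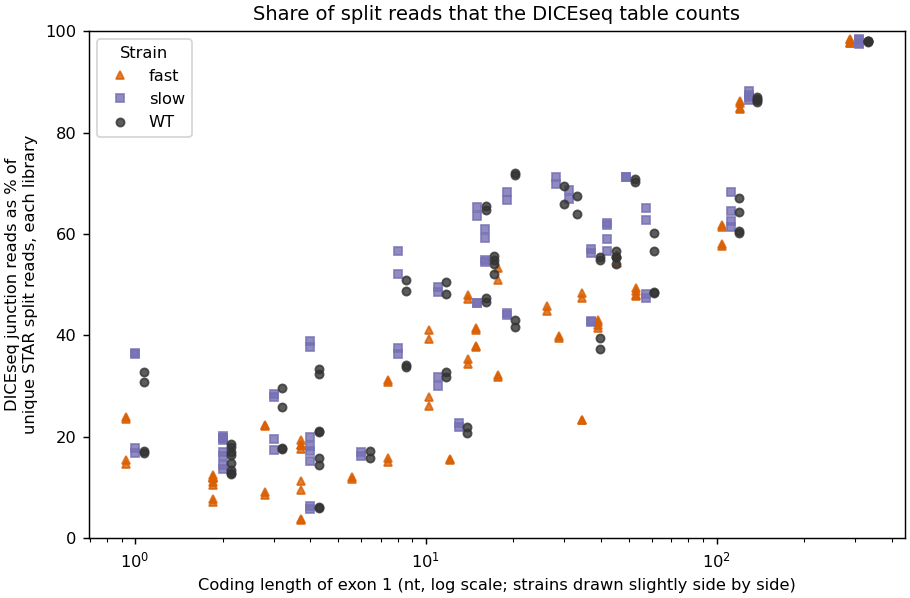
Share of unique STAR split reads of each intron that the DICEseq table counts as junction reads (%, y axis) against the coding length of exon 1 (nt, log axis) for 39 genes in the 2 libraries of fast (triangles), slow (squares) and WT (circles). The fast points lie under WT for the 33 genes with less than 100 nt and close to WT for RPL17A and RPL17B at 309 nt.

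With the STAR split reads as mRNA, an alternative added after the data were seen, 0 members had a higher ratio in fast and 9 a lower one. Over the 237 genes that could be tested, 1.27% were higher and 7.59% lower, and the medians were −0.19 over the members and −0.23 over all genes. RPL17B and RPL14B, both with a long exon 1, passed under either count, with log2 ratios of −0.75 and −0.64 under this one. For these genes both counts are largely the same reads, so passing under both adds little. In WT, DICEseq counted 98.1% and 98.0% of the split reads of RPL17B and 85.9% and 86.6% of those of RPL14B. RPL6A, RPL21A, RPL36B and RPL28 stood at 0.46, 0.24, 0.25 and 0.20, above 0 but not past the threshold (adjusted p = 0.0744, 0.213, 0.299 and 0.288). The other 7 that passed had 13 nt or less of coding exon 1: RPL43B at −1.09, RPL35A at −0.99, RPL19A at −0.90, RPL40A at −0.89, RPL42A at −0.74, RPL25 at −0.73 and RPL40B at −0.69 on the log2 scale. RPL40A and RPL40B encode a ribosomal protein fused to ubiquitin, and RPL25 encodes a protein at the tunnel exit where targeting factors dock.

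One more count set 5′ boundary reads, which like junction reads start in exon 1, against DICEseq junction reads. In this one 0 members passed in either direction in fast (4 at an unadjusted p under 0.05), and 0.581% of 172 genes in each direction, with a median of 0.08 over the members. The 3 counts therefore gave 4, 0 and 0 members with a higher ratio in fast. Under this last count RPL17B and RPL14B stood at −0.79 and −0.45 (adjusted p = 0.148 and 0.451). Its member changes ran from −5.29 in RPL2A to 1.28 in RPL2B, both with 4 nt of coding exon 1. Neither passed (edgeR, adjusted p = 0.516 and 0.423), so this count decides little for genes with a short exon 1.

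**Figure D3:**
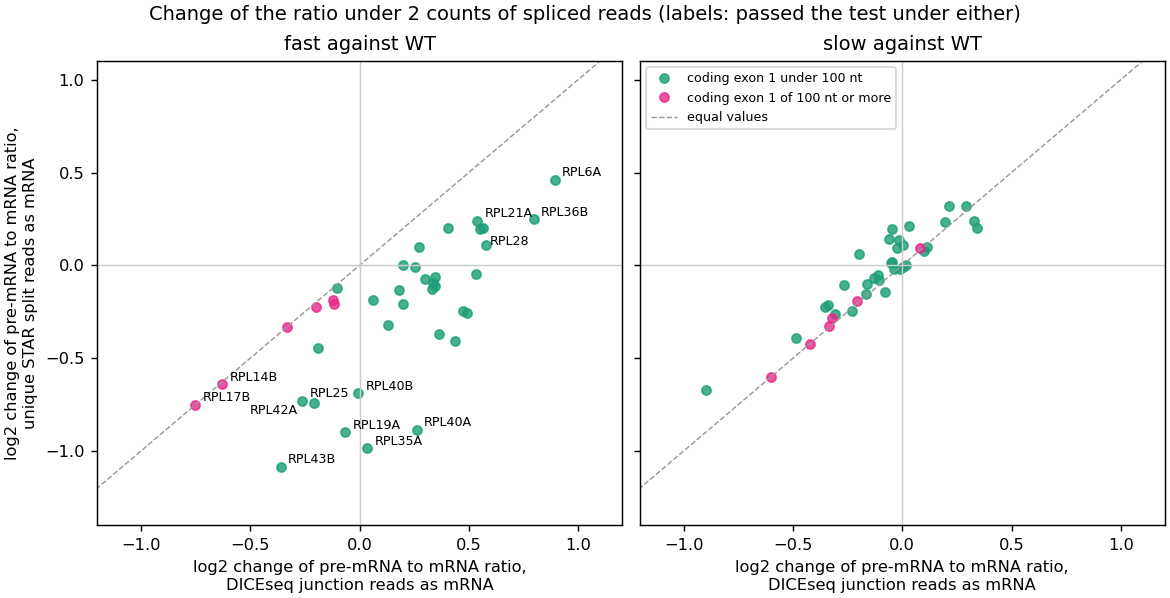
Change in pre-mRNA to mRNA ratio (log2) for 39 genes in fast (left) and slow (right) against WT, with DICEseq junction reads as mRNA (x axis) and with unique STAR split reads as mRNA (y axis). In fast, genes with under 100 nt of coding exon 1 lie under the line of equal values while RPL17B and RPL14B lie on it, and in slow the genes lie near that line.

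In the slow mutant 0 members passed in either direction, and over all genes 0.00% were higher and 0.400% lower. At an unadjusted p under 0.05 there were 6 members, and DESeq2 called 2, both lower, RPL17B and RPL2A, against 3.60% of all genes. The median was −0.06 over the members and −0.18 over all genes. The fraction lay under both WT libraries in both slow libraries for 15 members and over both for 6, against 36.4% and 13.2% of all genes tested. RPL2A, whose protein sits by the peptidyl transferase centre, had the lowest log2 ratio at −0.90 (standard error 0.25, adjusted p = 0.188) from fractions of 4.65% and 7.56% in slow against 11.2% and 10.03% in WT. With STAR split reads the median was −0.02, and again 0 members passed (5 at an unadjusted p under 0.05).

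Set against each other directly, the mutants differed in 8 members, all with a higher ratio in fast than in slow. Over all genes 10.8% were higher and 0.800% lower in fast. RPL2A had the greatest difference, 13.4% and 14.3% in fast against 4.65% and 7.56% in slow and a log2 ratio of 1.33 with a standard error of 0.25 (edgeR, adjusted p = 0.0144). RPL36B, RPL6A, RPL28 and RPL21A, which also passed in fast against WT, had log2 ratios of 1.03, 0.87, 0.72 and 0.55, with the same fast libraries in both comparisons. The rest were both copies of RPL16 and RPL23A. RPL16A stood at 8.68% and 9.77% in fast against 5.22% and 6.84% in slow (log2 ratio 0.67), and RPL16B at 4.45% and 5.17% in fast against 2.73% and 3.33% in slow (0.69). RPL23A stood at 7.42% and 7.56% in fast against 5.27% and 4.80% in slow (0.61). Their partners RPL2B and RPL23B did not pass, at 0.49 and 0.43 (adjusted p = 0.0977 and 0.0668). With STAR split reads 0 members were higher in fast and 6 lower, against 1.69% and 5.06% of 237 genes, and RPL16A turned to −0.10. Without the first slow library 0 passed, 4 did when the second fast library was left out, and 3 when either WT library was.

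The level of spliced RNA was then compared after TMM scaling, in CPM (junction reads scaled to the size of the library). In slow, 30 of 39 members were lower and 0 higher, against 28.3% lower and 14.3% higher of 265 genes. The median log2 change was −0.34 over the members, −0.31 over the small-subunit genes, 0.36 over 179 other genes and 0.05 over all. RPL42B had 4671 and 4642 CPM in slow against 7839 and 7706 CPM in WT (log2 −0.74, standard error 0.09, adjusted p = 3.08e-13 from edgeR). RPL33B had 7062 and 6888 CPM in slow against 11608 and 10820 CPM in WT (log2 −0.69). RPL2B had 1434 and 1589 CPM in slow against 2369 and 1987 CPM in WT (−0.53), and RPL18B had 2064 and 2286 CPM in slow against 3002 and 3195 CPM in WT (−0.51). In each of these 4 genes both slow libraries lay under both WT libraries. In bulk RNA, fewer cells that make a transcript and less of it per cell cannot be told apart. With exon 2 reads 30 members were lower and 0 higher (27.0% and 29.9% of 304 genes), with a median of −0.29. With STAR split reads 22 were lower and 0 higher (18.7% and 27.2% of 235 genes), with a median of −0.20. The same 19 members passed under all 3 counts, RPL42B, RPL33B, RPL2B and RPL18B among them. Without the first or the second slow library 12 or 10 members passed, and without the second fast library 18.

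In fast the 3 counts disagreed. With junction reads 2 members were higher, RPL14B and RPL17A, and 15 lower, against 10.2% and 14.3% of all genes, with a median of −0.17. RPL14B had 12281 and 11833 CPM in fast against 8957 and 9503 CPM in WT (log2 0.39, standard error 0.09, adjusted p = 0.000164), and RPL17A 18867 and 17104 CPM in fast against 15440 and 14461 CPM in WT (0.27). Among the lower ones RPL2B, RPL31B, RPL2A and RPL16A had log2 changes of −0.53, −0.49, −0.47 and −0.45. With exon 2 reads 4 members were higher and 6 lower (8.88% and 12.5% of 304 genes), with a median of −0.02. With STAR split reads 5 were higher and 6 lower (8.94% and 9.79% of 235 genes), also with a median of −0.02. No member passed in the same direction under all 3 counts in fast. With junction reads, 9 were lower without the second fast or the first WT library, and 1 was higher without the first fast or the second WT library. RPL2B stood at −0.09 with exon 2 reads and −0.02 with STAR split reads, and RPL2A at −0.05 and 0.13. RPL16A stood at 0.30 with exon 2 reads, past the threshold in the other direction (adjusted p = 0.00645), and at 0.04 with STAR split reads. Of the 17 members that passed with junction reads, 8 had the other sign with exon 2 reads and 6 with STAR split reads. Past the threshold in the other direction were RPL16A and RPL36B with exon 2 reads (RPL36B −0.25 with junction reads and 0.25 with exon 2 reads, adjusted p = 0.0308) and RPL40A with STAR split reads (−0.42 with junction reads and 0.48 with STAR split reads, adjusted p = 0.000129). RPL17A stood at −0.03 and 0.03. RPL31B stood at −0.20, which did not pass (adjusted p = 0.0565), and at −0.48, which did.

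**Figure D4:**
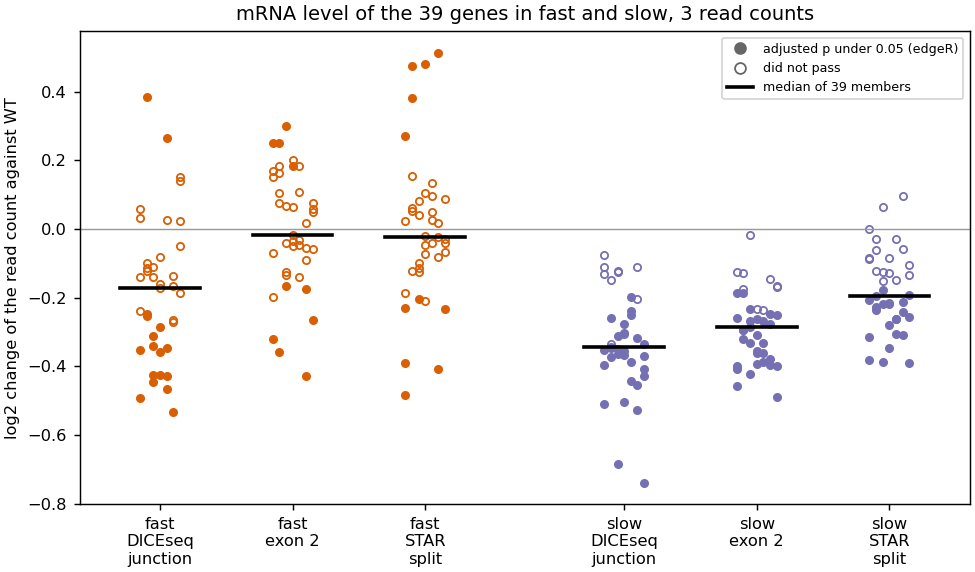
Log2 change of read count in fast (left) and slow (right) against WT for 39 genes, from DICEseq junction reads, exon 2 reads and unique STAR split reads, with filled points past the threshold and a line at the median. The medians in fast are −0.17, −0.02 and −0.02, and in slow −0.34, −0.29 and −0.20.

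Pre-mRNA reads were compared in the same way, in CPM of the pre-mRNA reads of the genes tested. In fast 4 members were higher and 7 lower, against 10.4% and 6.95% of 259 genes, with a median of 0.01 over the members. The 4 were the same genes that had a higher ratio: RPL6A with 3541 and 3060 CPM in fast against 2183 and 2237 CPM in WT (log2 0.58, adjusted p = 0.00336 from edgeR), RPL36B at 0.55, RPL21A at 0.40 and RPL28 at 0.39. The lowest were RPL17B, with 1435 and 1288 CPM in fast against 2450 and 2707 CPM in WT (−0.92, adjusted p = 0.000224), RPL42A at −0.49, RPL43B at −0.47 and RPL31B at −0.44. RPL42A and RPL43B are among the genes whose ratio was lower with STAR split reads. The same pre-mRNA reads are the upper term of the ratio, so a call in both is not a second, separate result. In slow 0 members were higher and 9 lower, against 9.27% and 13.5% of all genes, led by RPL2A with 739 and 1111 CPM in slow against 1924 and 1479 CPM in WT (−0.87, standard error 0.20, adjusted p = 0.00361), with RPL40B at −0.47 and RPL17B at −0.46. Without the first slow library 0 passed as lower in slow, without the second 4 and without either WT library 1. Without the first fast or the second WT library 0 passed as higher in fast, and 3 passed as lower without the second fast or the second WT library and 4 without the first WT library. Scaling by all reads of a library moved the median of all genes by more than 0.1 on the log2 scale. That median was then −0.13 in fast and −0.37 in slow for pre-mRNA reads, and −0.14 and −0.11 for junction reads. Under that scaling the counts of higher and lower members for pre-mRNA reads were 0 and 1 in fast (1.16% and 0.772% of all genes) and 0 and 12 in slow (1.54% and 17.4%). For junction reads they were 0 and 7 in fast (1.89% and 7.17%) and 0 and 25 in slow (6.42% and 21.1%).

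By role, the 10 genes of proteins around the exit tunnel (both copies of RPL17, RPL19, RPL31 and RPL35, with RPL25 and RPL39) had median log2 ratios of −0.08 (fast) and −0.16 (slow), with 1 lower in fast, RPL17B. The 6 analysed genes of proteins that bridge to the small subunit (both copies of RPL2, RPL19 and RPL23) had medians of 0.32 in fast and −0.23 in slow, and 0 passed against WT (3 and 2 at an unadjusted p under 0.05). In fast against slow 2 of them were higher, RPL2A and RPL23A. Of the 3 genes at the E site (RPL28 and both copies of RPL42), RPL28 alone passed in fast. Junction reads in slow were lower for 4 of 10, 3 of 6 and 3 of 3 genes of these lists and for both ubiquitin fusion genes, against 30 of the 39 members and 28.3% of all genes. The lists are short and share members, and they were not tested as sets.

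Across the members, neither intron length nor folding energy per nt went with the change in fast, with a Pearson's r of 0.07 and 0.15. In slow, intron length and the change had an r of 0.45 and a rho of 0.27, with RPL2A, the shortest intron, at the low end. These are descriptions over 39 genes measured in the same libraries.

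The A and B copies were compared within each library, as the difference of the log2 odds of pre-mRNA (A minus B), with an exact two-sided sign-flip permutation test over the 6 libraries. In 16 of the 18 pairs the difference had the same sign in all 6 libraries (p = 0.0312 from the exact permutation test, the smallest that 6 libraries can give, or 0.0352 adjusted over the 18 pairs). Among all 40 ribosomal protein pairs of the tables this held for 82.5%. The A copy had the higher odds of pre-mRNA in 7 pairs and the B copy in 9. Reads were not adjusted for intron length, so these odds are not amounts of pre-mRNA. In 7 of the 16 pairs the copy with the longer intron had the higher fraction. RPL14, with 398 nt in both copies, is among the 16 but can count neither way. The pairs outside the 16 were RPL17 and RPL21, with p-values of 0.688 and 0.0625 from the exact permutation test.

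The widest gaps included those of RPL36, RPL42 and RPL2. The RPL36 copies differed by 3.99 ± 0.28 (SD, n = 6) on the log2 scale, RPL36A being at 21.7% to 32.8% and RPL36B at 1.46% to 3.13% over the 6 libraries. RPL42A was at 66.8% to 74.6% and RPL42B at 11.5% to 17.0% (3.97 ± 0.21). In the opposite direction, RPL2A was at 4.65% to 14.3% and RPL2B at 55.2% to 65.6% (−3.84 ± 0.50). In each of these named pairs the copy with the higher fraction had the longer intron. The lengths of A and B were 463 and 238 nt in RPL36, 512 and 441 nt in RPL42, and 147 and 400 nt in RPL2. Over the 16 pairs this held in 7 only. It did not in RPL43 (403 and 275 nt, B higher) or RPL16 (290 and 449 nt, A higher), for example. With STAR split reads as mRNA 15 pairs passed, 11 of them with the same sign as before and 3 with the opposite sign, RPL20, RPL34 and RPL35. The gap of RPL2 then was −1.35, and those of RPL36 and RPL42 were 4.06 and 3.46.

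**Figure D5:**
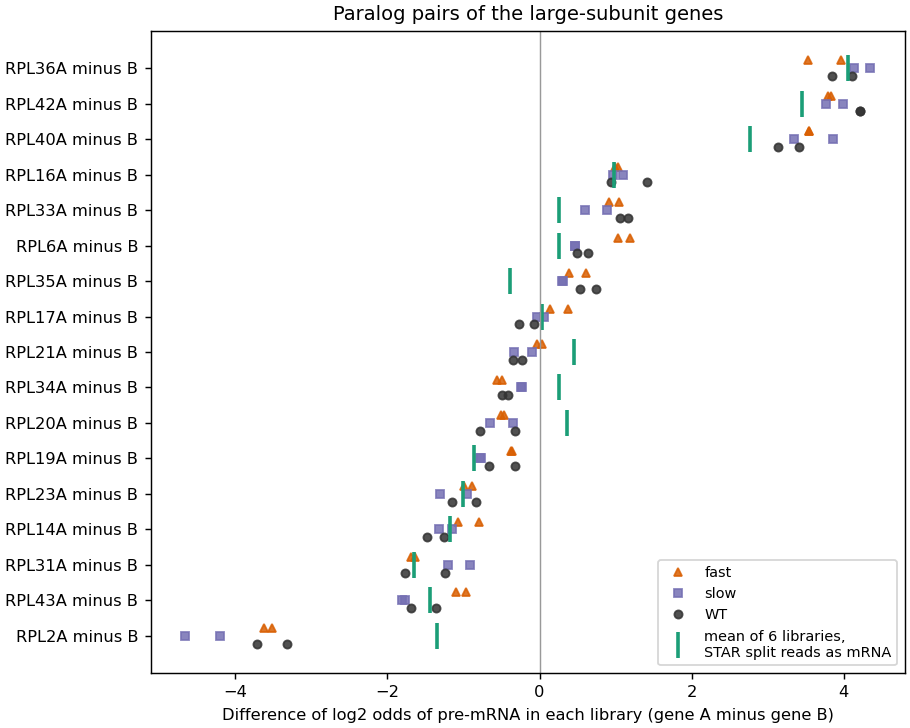
Difference of the log2 odds of pre-mRNA between the A and the B copy of 17 of the 18 pairs (x axis) in the 2 libraries of fast (triangles), slow (squares) and WT (circles), with the mean of the 6 libraries under STAR split reads as a green bar. The pairs run from 3.99 in RPL36 to −3.84 in RPL2, and the bar lies across 0 from the points in RPL20, RPL34 and RPL35.

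Splicing errors were counted from the STAR junctions, as events that use 1 annotated end of a member intron and a second end within 1000 nt of the other, each library of some strain having 5 or more unique reads of it. SEF (splicing error frequency) is the unique reads of an event as a percentage of those of the annotated junction. There were 50 such events in 28 member introns, 27 at the 3′SS and 23 at the 5′SS, of 287 in all genes. Of the 27 unannotated 3′SS, 14 lay within 15 nt downstream of the annotated site, and 12 read AAG, 6 TAG, 5 GAG and 4 CAG. Of the 23 unannotated 5′SS only that of RPL39, 385 nt upstream of the annotated one, read GTATGT. Together the events came to 0.141% and 0.141% of annotated member reads in fast, 0.138% and 0.118% in slow, and 0.115% and 0.0997% in WT. Without the most used of them, an upstream 3′SS of RPL34A, the other 49 events came to 0.0850% and 0.0914% in fast, 0.0698% and 0.0630% in slow, and 0.0718% and 0.0567% in WT, where slow and WT overlapped. The sums also hold 9 events that had no read in either WT library and met the minimum through a mutant alone. Others with some WT reads did so too, such as that of RPL39 with 4 and 0 reads in WT.

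The 5 events with the highest SEF in WT are given by their position relative to the annotated site. The 3′SS 32 nt upstream in RPL34A (new intron on chromosome V from 269784 to 270148) had an SEF of 1.88% and 2.02% in fast, 1.89% and 1.84% in slow, and 1.295% and 1.42% in WT, from 769 to 1292 reads per library. The 4 mutant libraries lay above both WT libraries. Its window is shown with the unannotated and then the annotated 3′SS in capitals.
RPL34A, chrV:269746-269806, minus strand: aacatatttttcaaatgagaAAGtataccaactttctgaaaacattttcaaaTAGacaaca

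The 3′SS 35 nt upstream in RPL16A, which reads GAG, had 0.968% and 1.17% in fast, 0.962% and 0.730% in slow, and 1.32% and 0.792% in WT, and the strains overlapped.
RPL16A, chrIX:99090-99153, minus strand: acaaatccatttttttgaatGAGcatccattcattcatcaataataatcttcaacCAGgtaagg

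The others were the 5′SS 216 nt downstream in RPL40B, the 3′SS 48 nt upstream in RPL21B and the 3′SS 14 nt downstream in RPL31B, with WT means of 0.224% ± 0.012, 0.222% ± 0.036 and 0.161% ± 0.143 (SD, n = 2). In fast they had 0.197%, 0.247% and 0.215%, and in slow 0.183%, 0.0924% and 0.314%, as means of 2 libraries.

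A pair of events was picked out after their values were seen, since both were read in every mutant library and in neither WT library. The 3′SS 107 nt upstream in RPL14B, a TAG before the BP, had 10 and 6 reads in fast, 4 and 4 in slow, and 0 and 0 in WT, where 0 reads allow an SEF of up to 0.0136% and 0.0139% (3 counts, per library). The 3′SS 169 nt upstream in RPL36B, a CAG, had 3 and 7 reads in fast, 9 and 7 in slow, and 0 and 0 in WT, which allows up to 0.00381% and 0.00474%. These are few reads, and such limits cover counting error only. The reverse pattern also occurred. The 5′SS 214 nt downstream in RPL35B had 1 and 0 reads in fast, 0 and 0 in slow, and 18 and 7 in WT. It met the read minimum through WT alone, as the RPL14B and RPL36B sites did through a mutant. The RPL14B window shows both sites in capitals, with the TACTAAC of the BP between them in lower case.
RPL14B, chrVIII:104674-104809, plus strand: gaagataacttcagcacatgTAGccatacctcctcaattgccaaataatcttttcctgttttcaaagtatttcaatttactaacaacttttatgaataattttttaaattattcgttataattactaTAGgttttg

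Tested across libraries with edgeR, 0 of the 50 events were higher and 0 lower than WT in either mutant, as were 0.00% of all 287 events. At an unadjusted p under 0.05 there were 7 member events in fast and 7 in slow, and DESeq2 called 3 higher and 0 lower in fast (7.67% and 1.74% of all events) and 2 higher and 0 lower in slow (2.79% and 0.697%). All member events that DESeq2 called had 0 reads in both WT libraries. Those at an unadjusted p under 0.05 included events read in WT, such as the 3′SS 36 nt upstream in RPL34A, with 20 and 30 reads there. The lowest adjusted p of a member event was 0.213 in fast, that of the RPL14B site, and 0.324 in slow. Fisher's exact test on summed reads, with both libraries of a strain pooled, called 23 higher and 6 lower in fast and 16 higher and 13 lower in slow. It was read at the authors' own thresholds, which are stricter than that of the other tests. The background of that test was 35.9% and 16.7% of all events in fast and 28.6% and 20.6% in slow. It takes no account of the spread between replicates, which was wide. The 5′SS 29 nt upstream in RPL16A, for example, had 44 and 10 reads in fast, 43 and 0 in slow, and 11 and 0 in WT. In both fast libraries the SEF exceeded both WT libraries for 19 events and lay under both for 4, against 31.0% and 16% of all events, and in both slow libraries for 12 and 8, against 23% and 18.1%. An event entered when any strain met the read minimum. Events read mostly in a mutant were thus admitted because they were high there, and events read mostly in WT because they were high in WT. Several of the events higher in fast missed the minimum in WT. The counts of higher and lower events, Fisher's included, therefore cannot decide whether errors were more frequent in a mutant.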

How the data were processed

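RNA of the fast, slow and WT strains, 2 biological replicates each, was sequenced by the authors as strand-specific paired-end libraries after rRNA depletion. They aligned the reads with STAR to R64 (sacCer3) and deposited raw counts of split reads per junction, and, from the dice-count function of DICEseq, raw counts of reads of each class for every gene. The FPKM values that the authors deposited beside them gave only the relative size of each library, 1.0 to 1.298.

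Pre-mRNA reads (both boundaries plus intron) and junction reads entered edgeR 4.0.16 (R 4.3.3) as 2 columns per library, with a term for each library and one for read class by strain, for the 250 genes that reached 10 reads in each class. Levels used TMM and the default filter. P-values were adjusted over all genes or events by Benjamini-Hochberg (threshold 0.05) and measure the spread between 2 replicates per strain. Fisher's test is the exception, since it pools the replicates and kept the authors' stricter thresholds. Intervals are not given for shares, since reads without molecular identifiers are not independent molecules. On simulated data the ratio fit in fast against WT (250 genes) recovered 44% of 2-fold and 82% of 4-fold changes, and the event fit (287 events) 0% of 2-fold, 10% of 8-fold and 92% of 32-fold changes, so that most changes of SEF up to 8-fold would be missed. DESeq2 1.42.0 was an alternative.

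Named were the called members with the greatest change per comparison and direction (10 for the ratio, 4 for levels), RPL28, RPL39, paralogs of the genes named for the ratio, the 5 highest and lowest WT fractions, the 5 highest WT SEF and the 4 widest paralog gaps. One gene and the comparison with its paralog are not reported here by name, though they are in the counts and medians. Members and lists were chosen with earlier results of these data known. STAR split reads, exon 2 reads, 5′ boundary reads alone and intron reads alone were added as counts after the data were seen. Splice site letters were searched on the sense strand, folding used RNAfold 2.7.2, and other steps used Python 3.11.15.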

Additional observations from a re-analysis of the deposited data

How the results depend on the processing

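With 2 libraries per strain the calls are fragile. Leaving out 1 library gave 0 to 5 members higher and 0 to 1 lower in the ratio of fast against WT, 0 to 8 higher in fast against slow, 1 to 2 higher and 9 to 16 lower in junction reads of fast, 10 to 29 lower in junction reads of slow, 0 to 4 higher and 3 to 6 lower in pre-mRNA reads of fast, and 0 to 10 lower in pre-mRNA reads of slow.

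In the ratio of fast against WT, 4 members were higher and 2 lower in the fit reported. The replicate block gave 7 higher, DESeq2 8, boundary reads alone 2, intron reads alone 2 with 1 lower, 5′ boundary reads alone 0 and 0, STAR split reads 0 with 9 lower, and the 2 strains alone 1 lower. DESeq2 gave 2 lower in slow against WT. In fast against slow (8 higher, 0 lower), boundary reads alone gave 5 and 1, the 2 strains alone 3 higher, 5′ boundary reads alone 0 higher, STAR split reads 0 and 6, and DESeq2 1 lower. Junction reads of fast (2 higher, 15 lower) gave 4 higher with the replicate block, 0 and 7 with scaling by all reads, 4 and 6 with exon 2 reads and 5 and 6 with STAR split reads. Pre-mRNA reads of fast (4 and 7) gave 0 and 1 with scaling by all reads. For events (0 and 0), DESeq2 gave 3 higher in fast and 2 in slow, and Fisher's test 23 higher and 6 lower in fast and 16 and 13 in slow.

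Signs turned in fast against slow with 5′ boundary reads alone for RPL2A (−1.94), RPL16B (−0.039), RPL23A (−0.17) and RPL21A (−0.26) and with STAR split reads for RPL16A (−0.10). The turned values with 5′ boundary reads did not pass (edgeR, adjusted p of 0.832 or more). RPL2A has 4 nt of coding exon 1, and with those reads it stood at −5.29 in fast and −3.35 in slow against WT. Of the 17 members called in junction reads of fast, 8 turned with exon 2 reads and 6 with STAR split reads, among them RPL17A (−0.032) and RPL16A (0.30) with exon 2 reads and RPL2A (0.13) and RPL16A (0.041) with STAR split reads. The cause was not tested.

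The replicate numbers of the strains carry no stated pairing. The deviations of same-numbered libraries correlated at −0.00 (fast and WT), −0.21 (slow and WT) and −0.03 (fast and slow) over 227 genes. With 2 libraries per strain these values cannot decide whether same-numbered libraries share a batch. With the replicate block the counts of members higher and lower in the ratio were 7 and 2 in fast and 0 and 0 in slow.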
